A study of Saccharomyces cerevisiae with 12 samples.

Results

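The response of yeast to growth at 12 °C in place of 30 °C under carbon limitation is described here across all measured genes. The samples were found by their titles, which name carbon limitation, and they are 6 of the 12 Affymetrix arrays of the series. Each array was hybridised with labelled polyA RNA from 1 culture. Both groups held the prototrophic haploid strain CEN.PK113-7D, a laboratory yeast (Saccharomyces cerevisiae) of mating type a with no further alleles named. The cultures grew without oxygen in synthetic medium in which carbon ran short and every other nutrient was in excess, at a constant pH. They were chemostats, vessels that are fed and drained at 1 rate so that this dilution rate sets the growth rate, here 0.03 per hour in all groups. There were 3 separately grown cultures at 12 °C and 3 at 30 °C. The other 6 arrays came from nitrogen-limited cultures of the same strain, dilution rate and temperatures, and they are used to share the estimate of the spread and to show where the temperature effect differed between the limitations.

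Yeast takes up glucose through a family of hexose transporters, and glucose that is plentiful represses the genes for respiration, for other sugars and for gluconeogenesis. A carbon-limited chemostat holds little residual sugar, so these genes are partly relieved of repression in it. Cold stiffens membranes, slows protein folding and translation and stabilises RNA structures, and yeast is known to answer it with changes in ribosome assembly, lipid synthesis and cell wall mannoproteins. The dilution rate was the same at both temperatures, so the growth rate was matched. Residual sugar at each temperature is not among the values used here, and its part in the changes was not tested.

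A signal here is the linear brightness of a probe set as deposited. Signals under 12 were raised to that floor before log2 was taken, and changes are log2 differences, 12 °C minus 30 °C. Because all arrays had been scaled to 1 mean level before deposit, RNA per cell cannot be compared, and less RNA of a gene in every cell cannot be told apart from fewer cells that carry it. A gene is said to rise or fall where limma, a linear model fitted across all genes, gave an adjusted p under 0.05. All p values of genes below are limma's, adjusted over 5400 genes.

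The 6 arrays had median signals of 46.4 to 49.2, and 25.02% to 25.98% of their probe sets were at or under the floor. Log2 signals of arrays from 1 temperature correlated across genes at 0.962 to 0.986, and those of arrays from both temperatures at 0.9004 to 0.9223 (genes are not independent replicates). The first principal component held 67.8% of the variance and separated the temperatures. The second held 12.8% and set replicate 2 apart from replicate 3 at 12 °C. The strain is of mating type a, and the markers of that type, MFA1, MFA2, STE2, STE6, BAR1, ASG7 and AGA2, were above the floor on 6 of 6 arrays. Of the genes that mark the other mating type, MF(ALPHA)1 read 201.2 to 1630, STE3 31.5 to 64.7 and SAG1 103 to 277.5. These were all above the floor on 6 of 6 arrays, and MF(ALPHA)2 read 4.7 to 33.3 with 3 above it. Being above the floor thus does not tell the mating types apart. Median signals of the sporulation markers NDT80, SPO11, SPS1, DIT1 and SPO21 lay between 3.8 and 18.5. The bacterial spike-in probe sets averaged 317.4 ± 33.4 at 30 °C against 519 ± 68.8 at 12 °C (SD, n = 3), and what part this difference has in the results was not tested.

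Most of the response was of modest size. Among 5400 tested genes, 1386 changed (25.7%), 707 upward (13.1%) and 679 downward (12.6%). The median change of all genes was 0.03, the middle part between the 25th and 75th percentiles ran from -0.34 to 0.38, and the 5th and 95th percentiles were -1.09 and 0.94. A change of under 0.5 in size was seen in 64.2% of genes and one of under 1 in 89.7%. The genes that rose had a median change of 0.84 and those that fell one of -0.97, and the smallest change that was called was 0.41. Between 0.5 and 1, the calls leaned upward, with 453 rises and 340 falls among 1380 genes. Above 1 they leaned downward, with 207 rises and 264 falls between 1 and 2, 15 and 42 between 2 and 3, and 5 and 19 at 3 or more.

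The precision of the arrays bears on these numbers. The median standard error of a change was 0.22, and genes varied more between cultures at 12 °C (median SD 0.26) than at 30 °C (0.18), with the larger SD at 12 °C in 3575 genes. For 490 genes (9.07%) the 95% interval of the change lay within 0.5 of zero. A lack of a call thus seldom excludes a change of 0.5 in size. For 3462 genes (64.1%) the interval lay within 1 of zero. For most tested genes, called or not, it thus excluded a change of over 1 in size. The groups of 3 arrays had no overlap of signals in 42.7% of all genes and in 1343 of the 1386 called ones. Without replicate 1 at 30 °C, 921 genes changed, 469 upward and 452 downward.

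**Figure D1:**
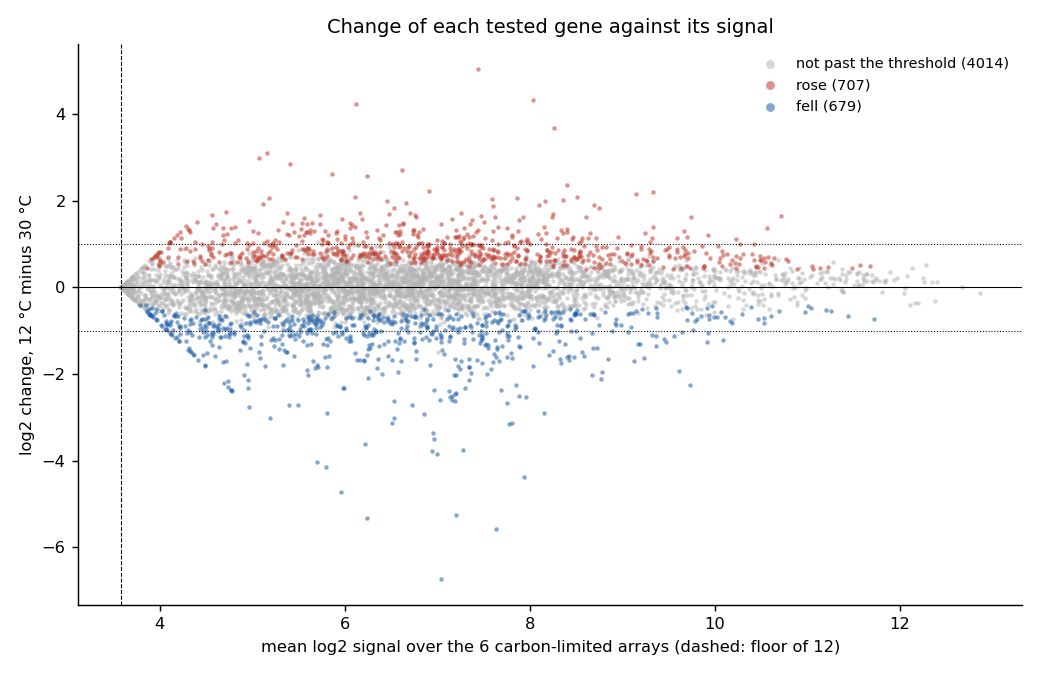
Log2 change (12 °C minus 30 °C) of 5400 tested genes against their mean log2 signal over the 6 carbon-limited arrays. Each point is a gene, red for the 707 that rose, blue for the 679 that fell and grey for the others. Dotted lines mark a change of 1, and the points along the slanted edges at the left have 1 temperature at the floor of 12.

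Calls were found at every level of signal. In 10 equal groups of genes by mean signal, 20% to 30.9% were called. In the brightest group 104 genes rose and 59 fell, and in the group next to the dimmest 50 rose and 88 fell. In the brightest group the largest rises were those of MF(ALPHA)1, a gene of the alpha-factor pheromone, LYS1 and TIR2, and the largest fall of an mRNA was that of MAL11, a maltose and alpha-glucoside transporter. MIN7, GPG1 and the glutaredoxin gene GRX1 also fell in this group, by 1.36, 1.32 and 1.31. At the other end, 38 genes that fell had all 3 cultures at 12 °C at the floor and 16 that rose had all 3 at 30 °C there, so that their fold changes are lower bounds.

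Genes for gluconeogenesis and other carbon sources leaned downward: 20 of 44 fell (45.45%), 4 rose (9.09%) and 20 did not pass, with a median change of -0.47. Of all genes 12.6% fell and 13.1% rose. PCK1, which encodes phosphoenolpyruvate carboxykinase, read 668.4, 700.9 and 628.3 on the arrays at 30 °C and 97.8, 78.5 and 56.9 at 12 °C. The groups were far apart and the fall was 8.77-fold (log2 -3.13, 95% interval -3.62 to -2.65, adjusted p = 7.63e-08). MAL11 read 1786, 2012 and 1765 at 30 °C and 604.7, 439 and 220.9 at 12 °C. Its highest value at 12 °C lay well below the lowest at 30 °C, and it fell 4.76-fold (adjusted p = 2.58e-05). IMA1, an isomaltase, and GUT2, the mitochondrial glycerol 3-phosphate dehydrogenase, fell by 1.49 and 1.48. With a floor of 50, 1 gene of this list rose in place of 4. Here and below, that setting also leaves out genes not above 50 on at least 3 arrays. Its lower counts can thus hold genes that were no longer tested.

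Hexose transporters moved both ways. Of 31 measured genes of hexose transport and glucose sensing 6 rose (19.35%) and 8 fell (25.81%), against 13.1% and 12.6% of all genes. HXT3, a transporter of low affinity, read 255.5, 202.2 and 231.3 at 30 °C and 562.8, 974.5 and 983.4 at 12 °C, so that every array at 12 °C was above every array at 30 °C (3.56-fold, adjusted p = 5.85e-06). HXT2, of higher affinity, rose 2.55-fold, from 214 ± 28.6 to 557.3 ± 160 (SD, n = 3). HXT14 fell at least 1.82-fold to the floor. HXT genes are close in sequence, and the probe set of one may read another. STD1, which acts with the glucose sensors on the repressor of HXT genes, rose from readings of 31.7, 33 and 28.7 to 142.8, 194.5 and 229.4 (5.96-fold, adjusted p = 1.07e-06). Its relative MTH1, chosen after its values were seen, did not pass the test, at -0.62 (95% interval -1.12 to -0.12). MIG1, the main repressor of glucose-repressed genes, fell by 1.16, and REG2, a subunit of protein phosphatase 1, by 1.99.

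Of 34 glycolytic genes and genes that form ethanol and glycerol 6 rose (17.6%) and 5 fell (14.7%), against 13.1% and 12.6% of all genes, with a median of 0.17. All 5 falls were at least 2-fold. PDC5, a pyruvate decarboxylase, rose 2.32-fold, from 51.5, 65.7 and 51.4 to 140.4, 117.2 and 131.7, and PDC1, the main isozyme of fermenting cells, rose by 0.65. The third isozyme, PDC6, fell by 2.14 (its call was lost with a floor of 50). Leaving out replicate 1 at 12 °C or 3 at 30 °C gave 2 rises in place of 6, and leaving out replicate 3 at 12 °C or 1 at 30 °C gave 3. Among 26 genes of the TCA cycle 5 fell and 2 rose (3 fell without replicate 3 at 12 °C or without any 1 array at 30 °C). The mitochondrial carriers ODC1 and ODC2, which exchange oxodicarboxylates, moved apart, at -1.30 and 1.62, and the citrate synthase CIT1 fell by 0.68.

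Genes of the respiratory chain and ATP synthase fell, in cultures that were anaerobic at both temperatures. Of 40 measured members 17 fell, none rose and 23 did not pass, and 4 had a positive change, with a median of -0.48. At an unadjusted p under 0.05 in limma, 25 fell and 0 rose. QCR2, a core subunit of the cytochrome bc1 complex, read 427.5, 425.9 and 332.2 at 30 °C and 256.8, 147 and 141.1 at 12 °C. The groups did not overlap, and the fall was 2.25-fold (log2 -1.17, 95% interval -1.65 to -0.69, adjusted p = 0.00132). COX5A, a cytochrome c oxidase subunit that is tied to aerobic growth, fell 2.14-fold from 935 ± 72.1 to 444.5 ± 105 (SD, n = 3). Its counterpart of anaerobic growth, COX5B, fell by 1.17. QCR10 and the succinate dehydrogenase subunit SDH1 fell by 1.58 and 1.20, SHH3, a relative of another subunit of that enzyme, by 3.12, and the external NADH dehydrogenase NDE2 at least 3.51-fold to the floor. Without replicate 3 at 12 °C or at 30 °C, 11 members fell. Under nitrogen limitation, where 15.9% of all genes rose and 22.3% fell, 9 members rose and 2 fell. The difference between the limitations, called for 7.44% of all genes (2.91% upward and 4.54% downward), was called for 10 members, each with the change under nitrogen above that under carbon. Of 31 hypoxic and heme-linked genes 8 fell (25.81%) and 3 rose (9.68%), against 12.6% and 13.1% of all genes under carbon limitation. The falls were 3 to 5 without replicate 3 at 12 °C or any 1 array at 30 °C. AAC1, a mitochondrial ADP/ATP carrier, was among those that fell, at -1.17.

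**Figure D2:**
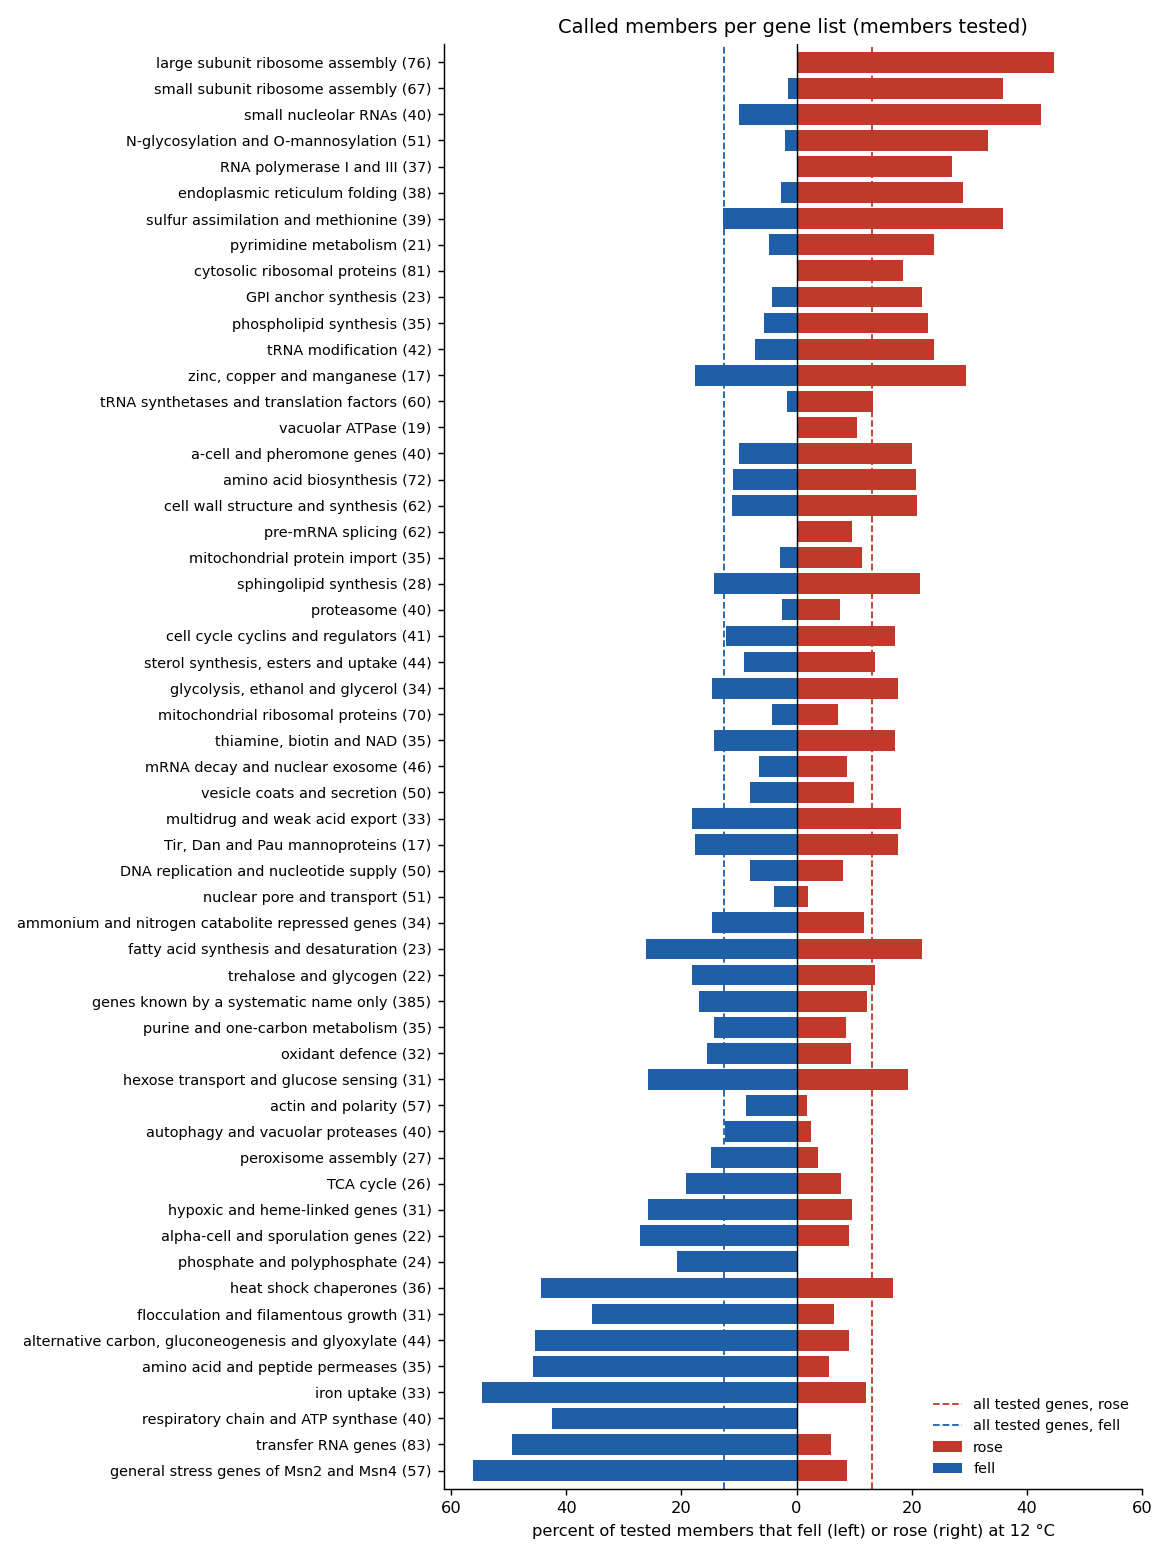
Share of the tested members of each gene list with 15 or more members that fell (blue, left) or rose (red, right) at 12 °C under carbon limitation. Numbers in brackets give the members tested, and dashed lines the shares over all 5400 genes, 13.1% upward and 12.6% downward. Ribosome assembly, small nucleolar RNAs and glycosylation stand at the top, and stress genes, transfer RNA genes and respiratory genes at the bottom.

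Permeases for amino acids and peptides fell, while several synthesis genes rose. Of 35 permease genes 16 fell (45.71%), 2 rose (5.71%) and 17 did not pass, against 12.6% and 13.1% of all genes that fell and rose. PTR2, a transporter of small peptides, read 295.4, 229.1 and 260.9 at 30 °C and 22.1, 22.8 and 19.2 at 12 °C. The values at 12 °C were close to each other, and the fall was 12.2-fold (adjusted p = 6.96e-08). TAT2, a tryptophan and tyrosine permease, fell by 1.31. GAP1, the general amino acid permease, was one of the 2 that rose, from 79.2 ± 8.05 to 141.4 ± 30.4 (SD, n = 3; log2 0.82, adjusted p = 0.00284). Of 34 ammonium and nitrogen catabolite repressed genes 4 rose and 5 fell, near the shares of all genes. MEP3, an ammonium permease, rose 4.23-fold (adjusted p = 4.97e-05), and GDH3, a glutamate dehydrogenase isozyme, fell by 2.09. Leaving out single arrays gave 2 rises in place of 4 (replicate 1 or 2 at 30 °C) and 3 falls in place of 5 (replicate 1 or 2 at either temperature). A floor of 50 gave 2 falls.

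Of 72 genes of amino acid biosynthesis 15 rose (20.83%) and 8 fell (11.11%), against 13.1% and 12.6% of all genes. LYS1, the last enzyme of lysine synthesis, read 212.4, 290.5 and 316.7 at 30 °C and 1112, 1123 and 1346 at 12 °C. The groups were far apart, and the rise was 4.41-fold (log2 2.14, 95% interval 1.77 to 2.52, adjusted p = 3.12e-07). LYS9 of the same pathway rose by 1.12, ARG7 of ornithine synthesis by 1.31 and LEU9, an isozyme of the first step of leucine synthesis, by 1.10. Without replicate 2 at 30 °C 8 genes rose, a fit in which 511 of all genes rose in place of 707. The 8 falls were 3 to 5 without any 1 array other than replicate 1 at 12 °C. Of 39 genes of sulfur assimilation and methionine 14 rose (35.9%) and 5 fell (12.82%), and 9 rose without replicate 3 at 12 °C. MET16 and MET5, reductases on the way from sulfate to sulfide, rose by 1.14 and 0.94.

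Among nucleotide genes, URA3, the last enzyme of UMP synthesis, rose by 1.27, and FUI1, the uridine permease, fell at least 5.19-fold, from 66.2, 51.3 and 71 at 30 °C to the floor in every culture at 12 °C. FCY2, a purine and cytosine permease, fell by 1.30. In all, 5 of 21 pyrimidine genes rose (23.81%) and 1 fell (4.76%), against 13.1% and 12.6% of all genes. Of 35 purine and one-carbon genes 3 rose (8.57%) and 5 fell (14.29%), near or below those shares (2 fell without replicate 2 at 30 °C).

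The genes that build ribosomes rose on a broad front and by small steps. Of 76 factors of large subunit assembly 34 rose, none fell and 42 did not pass, and 72 had a positive change, with a median of 0.61 against 0.03 for all genes (at an unadjusted p under 0.05 in limma, 45 rose and 1 fell). Of 67 factors of small subunit assembly 24 rose, 1 fell and 42 did not pass, with a median of 0.46. DBP2, an RNA helicase, read 155.4, 152 and 187.8 at 30 °C and 576.9, 620.6 and 797.7 at 12 °C. The groups did not overlap, and the rise was 4.01-fold (log2 2.00, 95% interval 1.61 to 2.39, adjusted p = 1.07e-06). RRP17, an exonuclease of the nucleolus, rose by 1.52, and EMG1, a methyltransferase of ribosomal RNA, by 1.25. UTP13, of the early small subunit complex, rose from readings of 45.5, 46 and 60.7 to 132.9, 95.7 and 113.8 (2.25-fold). Among 37 polymerase I and III genes 10 rose (27.03%) and none fell, against 13.1% and 12.6% of all genes. At an unadjusted p under 0.05 in limma, 16 of these genes rose and 2 fell. RPA34, a subunit of polymerase I, rose by 1.27 and RRN3, its initiation factor, by 1.15.

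Enzymes that modify tRNA rose in smaller number, with 10 of 42 upward (23.81%) and 3 downward (7.14%), against 13.1% and 12.6% of all genes. The rises were 6 without replicate 1 at 12 °C or without 1 or 2 at 30 °C. In these fits 469 to 577 of all genes rose in place of 707. PUS4, a pseudouridine synthase, read 76.9, 87.3 and 74.5 at 30 °C and 221.6, 199.7 and 233.6 at 12 °C, a 2.74-fold rise (adjusted p = 3.29e-05). TAD2, a subunit of the tRNA adenosine deaminase, rose from 60.03 ± 6.65 to 163.6 ± 4.65 (SD, n = 3), and PUS7, another pseudouridine synthase, by 1.31. Cytosolic ribosomal protein genes moved less: 74 of 81 had a positive change, but the median was 0.28, 15 rose (18.52%) and none fell (33 and 0 at an unadjusted p under 0.05 in limma). These 81 are the tested ones of 138 listed genes. The probe sets of 30 of them share probes with other sequences, so the genes are not all separate observations. The rises were fewer without single arrays (8, 7 and 7 without replicate 3 at 12 °C, 1 at 30 °C or 3 at 30 °C). RPS22B rose 2.56-fold and NPL3, an mRNA-binding protein of the nucleus, 3.1-fold, and both probe sets match further sequences.

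Among RNAs that code for no protein, small nucleolar RNAs rose and transfer RNA genes fell. These classes normally carry no polyA tail, and the labels name polyA RNA as the material, so what is read is the part that was carried into the labelled sample. Of 40 small nucleolar RNAs, which guide ribosomal RNA modification and cleavage, 17 rose (42.5%) and 4 fell (10%), with a median of 0.56. Of all genes 13.1% rose and 12.6% fell. SNR70 read 240.2, 202.4 and 206.5 at 30 °C and 894.3, 896.2 and 633.1 at 12 °C (3.7-fold, adjusted p = 3.68e-06), and SNR41 rose by 1.82. SNR4 went the other way, from 297.2 ± 65.8 to 83.4 ± 34.6 (SD, n = 3; log2 -1.89). With a floor of 50 there were 10 rises, and without replicate 2 at 30 °C 11. The 4 falls were 2 without replicate 1 or 3 at either temperature.

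Of 83 measured transfer RNA genes 41 fell and 5 rose, with a median of -0.81, and 38 fell by at least 2-fold, as did 6.02% of all genes. The probe sets of 81 of them share probes with other sequences, since tRNA genes occur in near-identical copies, so the genes are not separate observations. SUF16, a glycine tRNA gene, read 368.5, 404.1 and 268.8 at 30 °C and 55, 87.5 and 50.6 at 12 °C, a 5.48-fold fall (adjusted p = 6.93e-06). Of 4 ribosomal RNA genes, whose probe sets also share probes, 3 fell. The fourth, RDN18-1, was dim and did not pass (adjusted p = 0.0802, chosen after its values were seen). RDN37-1, the precursor, went from 1075 ± 233 to 352.7 ± 97.9 and RDN5-1 from 1533 ± 159 to 400.5 ± 28.6 (SD, n = 3). The 5 rises of transfer RNA genes were 1 with a floor of 50, 2 without any 1 array at 30 °C and 3 without replicate 2 at 12 °C.

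Stress genes were the list with the largest share of falls. Of 57 genes controlled by the stress activators Msn2 and Msn4, 32 fell, 5 rose and 20 did not pass, with a median of -0.67. SIP18, a hydrophilin that binds phospholipids, read 600.2, 509.4 and 612.8 at 30 °C and 46.1, 38.5 and 42.9 at 12 °C, with no overlap and a 13.5-fold fall (log2 -3.75, 95% interval -4.35 to -3.16, adjusted p = 1.11e-07). Genes of stationary phase that are outside this list also fell: SPG4 fell by 3.50 and MOH1 by 2.93. ROQ1, which redirects a ubiquitin ligase under stress, fell 7.5-fold and TMA10, a ribosome-associated protein, fell from 1010 ± 87.8 to 316.6 ± 64.1 (SD, n = 3). The 5 rises were 2 or 3 with a floor of 50, without replicate 3 at 12 °C or without any 1 array at 30 °C. Of 36 heat shock chaperones 16 fell (44.44%) and 6 rose (16.67%), against 12.6% and 13.1% of all genes (3 rose without replicate 3 at 30 °C). SSA3, an Hsp70 of stressed cells, fell by 1.84 and the mitochondrial chaperonin HSP10 by 1.27, while CCT7, a subunit of the cytosolic chaperonin for actin and tubulin, rose 2.41-fold from 82.2, 80.6 and 56.7 to 166.3, 153.4 and 207.1.

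Genes of the endoplasmic reticulum and of glycosylation rose more often than they fell. Of 38 genes of protein folding in the endoplasmic reticulum 11 rose (28.95%) and 1 fell (2.63%), with a median of 0.40. Of all genes 13.1% rose and 12.6% fell. ERO1, the oxidase that drives disulfide formation there, read 24.6, 31.8 and 33.5 at 30 °C and 71.5, 94 and 125.9 at 12 °C, a 3.18-fold rise (adjusted p = 0.000213). LHS1, an Hsp70 of that compartment, rose from 72.6 ± 7.22 to 166.9 ± 2.93 (SD, n = 3) and EUG1, a protein disulfide isomerase, by 1.15. SND2, of the route that brings proteins to the compartment, rose by 1.29. Of 51 genes of N-glycosylation and O-mannosylation 17 rose and 1 fell, and 45 had a positive change (11 rose without replicate 1 at 30 °C). VRG4, the GDP-mannose transporter of the Golgi, read 354.2, 408 and 426.2 at 30 °C and 674.1, 1136 and 1080 at 12 °C, a 2.38-fold rise (adjusted p = 0.000571). MNN1, a mannosyltransferase, rose by 1.46 and PMT2, which adds the first O-linked mannose, by 0.92. PER1 and MCD4, of the assembly of the GPI anchor, rose by 1.40 and 0.95 among 5 rises and 1 fall in 23 genes (3 rises without replicate 1 at 12 °C or 2 at 30 °C). Among 50 genes of coats and other machinery of vesicle transport 5 rose and 4 fell, shares below those of all genes. The rises were 3 without replicate 1 or 3 at 30 °C, and the falls 1 or 2 when replicate 3 at 12 °C, or 1 or 2 at 30 °C, was left out.

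Cell wall genes changed both ways. Of 62 genes of wall structure and synthesis 13 rose (20.97%) and 7 fell (11.29%), against 13.1% and 12.6% of all genes. TIR2, a mannoprotein of cold and anaerobic growth, read 1022, 920.2 and 930.5 at 30 °C and 2644, 3074 and 3260 at 12 °C. The spread within each group was small against the distance, and the rise was 3.12-fold (log2 1.64, 95% interval 1.34 to 1.94, adjusted p = 4.18e-07). Of the 17 members measured in the family of Tir, Dan and Pau proteins, 3 rose and 3 fell (17.65% each). The probe sets of 10 of them share probes with other sequences, and leaving out single arrays gave as few as 1 rise (without replicate 1 at 30 °C) and 0 falls (without replicate 2 at 12 °C). CWP1 and PIR3, which are linked to the glucan layer, rose by 1.55 and 1.38. FLO11, the flocculin of filamentous growth and surface adhesion, fell 6.39-fold from 869.1, 433.9 and 428.5 to 87.7, 86.6 and 81.7 (adjusted p = 4.11e-07). Its values at 12 °C were nearly equal, while replicate 1 at 30 °C stood above the other two. Of 31 genes of flocculation and filamentous growth 11 fell and 2 rose (7 fell without replicate 1 or 3 at 30 °C), and the activator TEC1 fell by 0.94.

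Lipid genes moved both ways, as did all genes, of which 13.1% rose and 12.6% fell. Of 23 genes of fatty acid synthesis and desaturation 5 rose and 6 fell. The rises were 2 or 3 with the mean of all probe sets and when replicate 3 at 12 °C or any 1 array at 30 °C was left out, and the falls 3 with a floor of 50 or with replicate 1 or 2 at 30 °C left out. Of 28 sphingolipid genes 6 rose and 4 fell, with 3 rises when replicate 1 or 2 at 30 °C was left out and 2 falls with a floor of 50 or with replicate 1 at 12 °C or any 1 array at 30 °C left out. Of 35 phospholipid genes 8 rose and 2 fell (5 rose without replicate 3 at 12 °C or without 1 or 2 at 30 °C). CHO1, phosphatidylserine synthase, read 454.4, 374.7 and 373.1 at 30 °C and 963.1, 1114 and 1043 at 12 °C, a 2.6-fold rise (adjusted p = 3.72e-06). INO1, the first enzyme of inositol synthesis, rose 4-fold from 143.5, 162.3 and 126.1 to 607.5, 558.5 and 551.8. OPI3, a methyltransferase of phosphatidylcholine synthesis, rose by 1.16. OLE1, the fatty acid desaturase, read 2114 ± 243 at 30 °C and 1883 ± 422 at 12 °C (SD, n = 3; log2 -0.18, 95% interval -0.52 to 0.15, chosen after its values were seen) and did not pass, and MGA2, which activates it, fell by 1.24. Of 44 sterol genes 6 rose (13.6%) and 4 fell (9.09%), near or below the shares of all genes. ERG28 rose by 1.14 and ERG24 by 0.95, and SUT1, a regulator of sterol uptake, fell 8.12-fold. EEB1, which makes ethyl esters of fatty acids, rose 3.1-fold.

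Iron uptake genes fell. Of 33 iron uptake genes 18 fell and 4 rose, with a median of -0.63 (with a floor of 50, 11 fell and 2 rose, and 2 rose when replicate 1 at 12 °C or 3 at 30 °C was left out). FTR1, the high affinity iron permease, read 353.6, 340.9 and 270.6 at 30 °C and 59.3, 77.5 and 49.9 at 12 °C, a 5.22-fold fall (adjusted p = 3.25e-07). Its partner oxidase FET3 fell at least 5.28-fold to the floor, and ARN1, a transporter of siderophores, by 2.33. FIT2, a wall mannoprotein that retains siderophores, fell by 3.35, with widely spread values of 544.9, 721.6 and 157.1 at 30 °C. Of 17 genes of zinc, copper and manganese 5 rose (29.41%) and 3 fell (17.65%), against 13.1% and 12.6% of all genes. CTR3, a copper transporter, rose from 109.6, 94.1 and 84.3 to 690.9, 277.7 and 306.8 (4.08-fold), where replicate 1 at 12 °C was the highest by far. CRS5, a metallothionein that binds copper, fell 7.52-fold from 786.1 ± 79.3 to 104.3 ± 6.93 (SD, n = 3; adjusted p = 1.25e-08). The gene annotation used here lists CRS5 as a pseudogene. ZRT1, the high affinity zinc transporter, rose by 1.29. None of 24 phosphate genes rose and 5 fell (4 and 6 at an unadjusted p under 0.05 in limma, and 3 falls without replicate 1 or 3 at 30 °C). PHO84, the high affinity phosphate transporter, fell 6.52-fold from 122.5, 99.6 and 125.3 to 16.6, 14.9 and 22.3 (adjusted p = 3.97e-07).

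Exporters, cell cycle genes and mating genes each held a few large changes. TPO4, a polyamine exporter, rose 4.17-fold and PDR5, the main multidrug exporter of the plasma membrane, fell 6.18-fold from 365.6 ± 34.1 to 60.7 ± 17.96 (SD, n = 3). Of 41 cell cycle regulators 7 rose (17.07%) and 5 fell (12.2%), against 13.1% and 12.6% of all genes. The falls were 2 or 3 with a floor of 50, without replicate 3 at 12 °C or without any 1 array at 30 °C. The B-type cyclin CLB2 rose by 1.05 and FAR1, which arrests the cycle in mating cells, by 1.15. RME1, a repressor of meiosis, fell by 1.00. Of 40 a-cell and pheromone genes 8 rose and 4 fell (1 or 2 fell without replicate 3 at 12 °C or 1 at 30 °C). FIG1, a membrane protein of mating cells, read 144.4, 196.3 and 172.6 at 30 °C and 562.6, 439.8 and 656.1 at 12 °C, a 3.21-fold rise. ASG7, a marker of the strain's own mating type, rose 3.96-fold, and MF(ALPHA)1, a marker of the other, 4.58-fold from 387.3, 352.9 and 201.2 to 1630, 1537 and 1057. Among the other markers of mating type a, STE2 had means of 507.1 at 30 °C and 511.1 at 12 °C, and MFA1, with the largest difference among the rest, 5108 and 3907. What part the markers of the other mating type have in these results was not tested.

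**Figure D3:**
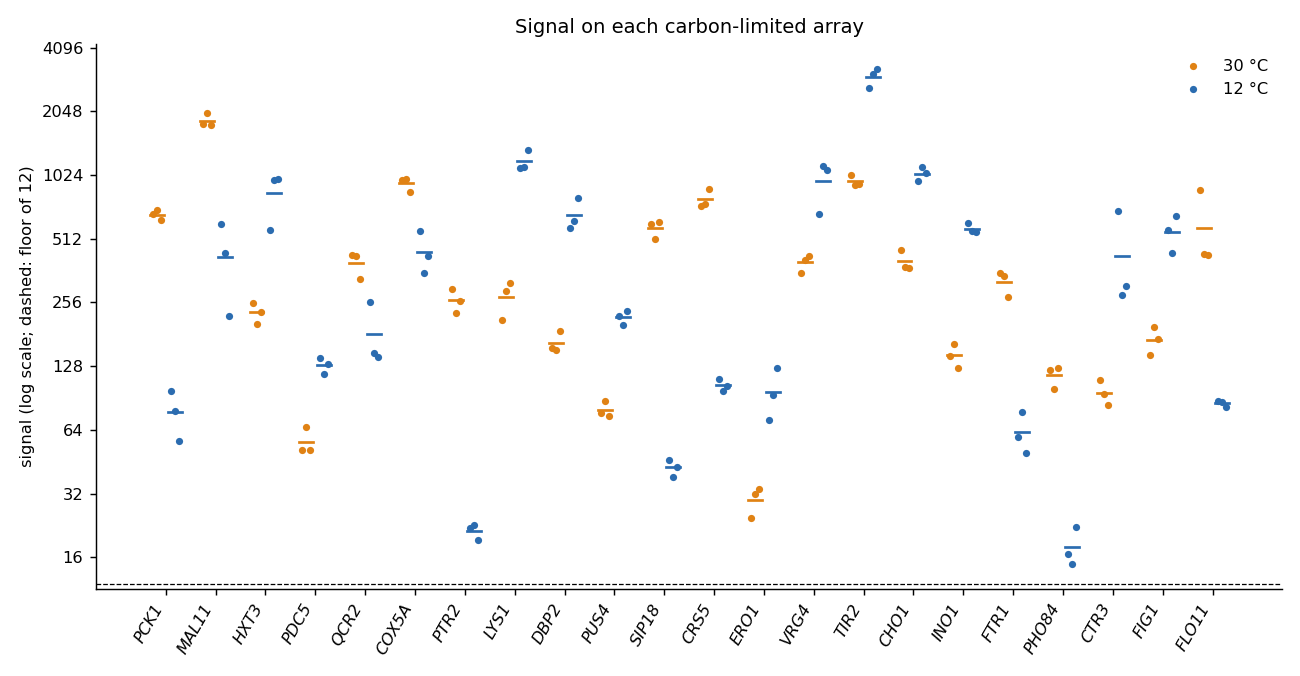
Signal of named genes on each of the 6 carbon-limited arrays, on a log scale. Dots are single arrays, 30 °C in orange and 12 °C in blue, short lines are group means (n = 3), and the dashed line is the floor of 12. All genes shown were picked from the called ones, of which 1343 of 1386 had no overlap of arrays between the temperatures. That no gene shown overlaps therefore follows from the choice of genes.

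Several lists had shares near or below those of all genes. Of 51 genes of the nuclear pore and transport 1 rose and 2 fell, and of 57 genes of actin and polarity 1 rose and 5 fell (3 fell without replicate 1 at 30 °C). Of 40 proteasome genes 3 rose and 1 fell, the one that fell being RPN4, the activator of the others, at -0.96. Of 70 mitochondrial ribosomal proteins 5 rose and 3 fell. Of 62 splicing genes 6 rose and none fell (10 and 3 at an unadjusted p under 0.05 in limma). Of 46 genes of mRNA decay 4 rose and 3 fell, of 50 replication genes 4 rose and 4 fell, and of 60 tRNA synthetases and translation factors 8 rose and 1 fell. Of 40 genes of autophagy and vacuolar proteases 1 rose and 5 fell, VPS30, a subunit of the lipid kinase complex that starts autophagy, by 1.42. Leaving out single arrays lowered some of these counts and raised others, such as the falls of proteasome genes, which were 1 to 3. Rises of mitochondrial ribosomal proteins were 1 to 3 without replicate 3 at 12 °C or any 1 array at 30 °C, and 8 with quantile normalization or the 6 arrays alone. Rises of synthetases and translation factors were 2 to 5 without any 1 array other than replicate 2 at 12 °C. Splicing had 3 rises without replicate 1 or 2 at 30 °C, and mRNA decay 1 without replicate 1 at 30 °C. Replication had 2 rises without replicate 3 at 30 °C, and 0 or 1 falls when replicate 1 or 3 at either temperature was left out (2 in the 6 arrays alone). None of the 5 measured histone genes was called (2 rose and 0 fell at an unadjusted p under 0.05 in limma). The 385 genes known by a systematic name alone gave 47 rises (12.21%) and 65 falls (16.88%), against 13.1% and 12.6% of all genes. Their share of falls was thus above that of all genes.

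Closely related genes were compared in pairs. Of 104 pairs of related genes with both members tested, 41 had no call and 45 had 1 member called. Both members were called in the same direction in 11 pairs (2 upward and 9 downward) and in opposite directions in 7. Of all genes 13.1% rose and 12.6% fell, and how often unrelated genes would pair in these ways was not tested. The sterol acyltransferase ARE2 rose at least 7.84-fold, from the floor in every culture at 30 °C to 95.9, 85.9 and 101.2, while ARE1 fell from 336.2, 257 and 290 to 144.3, 144.7 and 157.9. SED1, the main wall protein of stationary cells, rose from 978.1 ± 162 to 1938 ± 29.8 (SD, n = 3), and its relative SPI1 fell 5.19-fold from 485.5 ± 148 to 92.3 ± 20.4.

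Opposite calls were also found among enzymes. Of the branched-chain aminotransferases, the mitochondrial BAT1 rose by 0.72 and the cytosolic BAT2 fell by 1.80. Pyruvate kinase CDC19 rose by 0.47 (95% interval 0.18 to 0.76) and its minor isozyme PYK2 fell by 1.57. Hexokinase HXK2 rose by 0.77 and HXK1 fell by 0.55 (95% interval -0.90 to -0.21). The large subunit of ribonucleotide reductase, RNR1, rose from 279.8, 286.9 and 282 to 583.9, 626.9 and 669.4, and its alternative RNR3, whose probe set shares probes with other sequences, fell by 0.76. The protein kinases YPK1 and YPK2, of the response to membrane stress, were at 0.68 and -1.30. Calls of small changes were less firm. Quantile normalization ended that of CDC19, as did leaving out replicate 1 at 12 °C or either of 1 and 3 at 30 °C. That of HXK1 was lost in a fit of the 6 carbon-limited arrays alone and when replicate 1 or 3 at 12 °C, or replicate 2 or 3 at 30 °C, was left out, and those of YPK1 and RNR3 in that fit and without most single arrays.

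In 3 further pairs the members lay far apart. RGI1 and RGI2, a pair tied to respiratory growth, fell by 1.06 and 5.57 (the call of RGI1 needed the filter on dim genes, replicate 3 at 12 °C and replicate 1 at 30 °C). SUT2, the relative of SUT1, did not pass at 0.61 (95% interval 0.14 to 1.09), nor did PDR15, the relative of PDR5, at 0.59 (95% interval -0.12 to 1.31).

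**Figure D4:**
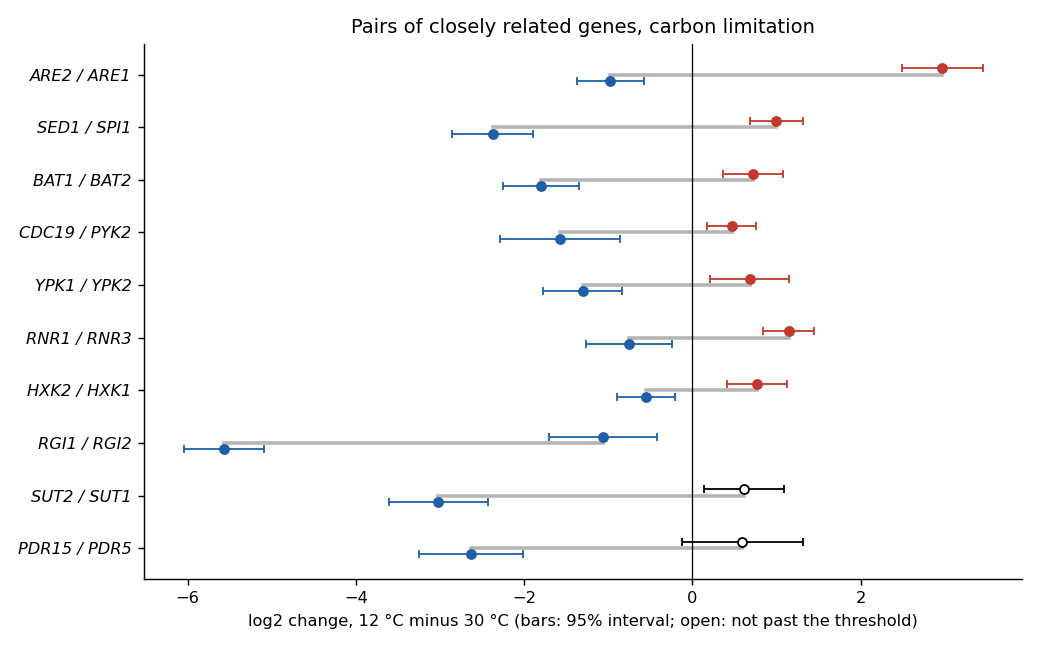
Log2 change (12 °C minus 30 °C) of both members of the 7 pairs of related genes called in opposite directions and, at the bottom, of 3 further pairs with a wide gap. Points are the fitted changes with 95% intervals, red for a rise, blue for a fall and open for a change that did not pass. For ARE2 the fitted change is a lower bound, since its 3 arrays at 30 °C were at the floor.

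Part of the response differed between the limitations. Of the 1386 genes that changed under carbon limitation 815 also changed in the same direction under nitrogen limitation. The difference between the 2 temperature effects was called for 402 of 5400 genes (7.44%), and for 186 of the 1386, of which 91 had risen and 95 had fallen. Of the genes that changed under carbon limitation and did not pass under nitrogen limitation, it was called for 41 that had risen and 48 that had fallen. INO1, described above, was at -0.31 under nitrogen limitation, a difference of -2.31 ± 0.30 (SE, adjusted p = 0.000183). STD1 was at 0.05, UPS3, a relative of a mitochondrial lipid transfer protein, at 0.25 after a rise of 2.07 under carbon limitation, and RPI1, an inhibitor of Ras signalling, at -0.47 after one of 1.67. Among the falls, PCK1 was at -0.23 under nitrogen limitation (difference 2.90 ± 0.32 SE), SIP18 at 0.18 (difference 3.93 ± 0.40 SE) and SHH3 at -0.20 (difference 2.92 ± 0.28 SE). PRM5, a target of the cell integrity pathway that fell 5.71-fold under carbon limitation, was at -0.59. YIG1, which is thought to inhibit glycerol formation, fell at least 5.19-fold to the floor under carbon limitation and was at the floor on all arrays under nitrogen limitation, so that this difference is a bound too.

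For 35 genes the effects were called in opposite directions, 20 of them upward under carbon limitation. HXT2 had the largest difference of these, with 1.35 under carbon and -4.35 under nitrogen limitation (difference -5.70 ± 0.32 SE, adjusted p = 1.49e-08). GAP1 was at 0.82 and -3.92 (difference -4.74 ± 0.25 SE). WSC4, a relative of the wall stress sensors, was at 1.47 and -1.31. TAT2 went the other way, at -1.31 and 1.28. DUR3, a urea permease, and CYC1, cytochrome c, were at 0.78 and -3.14, and at -0.96 and 1.75. Their calls under carbon limitation were lost in a fit of its 6 arrays alone and without most single arrays, and the arrays of CYC1 overlapped between the temperatures, with 440, 430.2 and 264.7 at 30 °C and 307, 163.9 and 135.9 at 12 °C. Of 34 ammonium and nitrogen catabolite repressed genes the difference was called for 14, each with the change under nitrogen below that under carbon. With median scaling 270 differences were upward and 168 downward, and with quantile normalization 225 and 221, in place of 157 and 245. The median difference over all genes, nitrogen minus carbon limitation, was -0.10 as deposited, 0.07 with median scaling and -0.01 with quantile normalization. Without replicate 1 or 2 at 30 °C under carbon limitation, 246 and 249 differences were called.

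**Figure D5:**
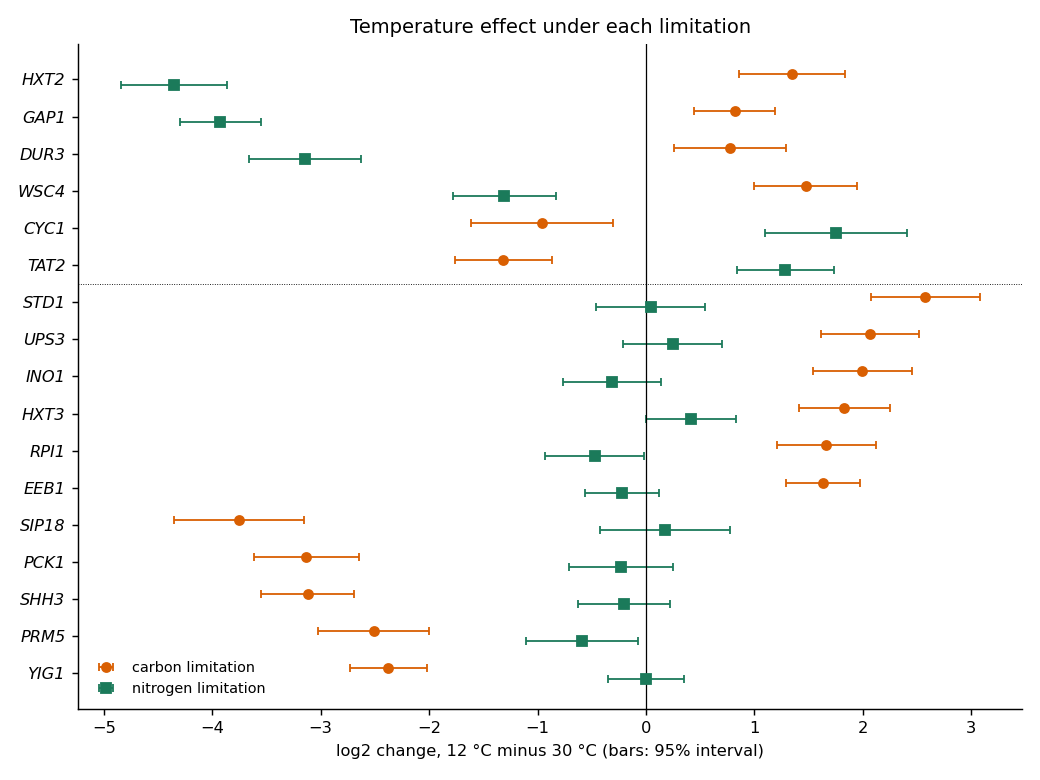
Log2 change (12 °C minus 30 °C) of genes under carbon limitation (orange circles) and nitrogen limitation (green squares), with 95% intervals. Above the dotted line are 6 genes called in opposite directions under the 2 limitations, and below it genes called under carbon limitation and not under nitrogen limitation.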

How the data were processed

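The deposited values are linear intensity signals per probe set, which the authors made with GCOS, per the submitters' processing notes; the sources used here do not give its version or settings. No genome or promoter sequence was used here. Signals were floored at 12, log2 was taken, a gene was read from its brightest probe set (mean log2 over the 12 arrays), and genes above the floor on at least 3 arrays were kept. Of 9335 probe sets 6504 were named by 1 gene in the platform annotation, 328 by several and 2503 by none; the first gave 5656 genes, of which 5400 were tested.

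limma 3.58.1 in R 4.3.3 fitted 4 group means to the 12 arrays (eBayes with an intensity trend, Benjamini-Hochberg over all tested genes, threshold 0.05), and the code was tested on simulated data. The cultures were grown separately, so the p-values measure the spread between cultures. The title of 1 carbon-limited sample is misspelled, and its source name gives the limitation. The labels name no pairing of cultures by replicate number, and none was fitted in the main model. Deviations of same-numbered arrays at 12 and 30 °C correlated at 0.03, -0.20 and -0.07 across genes. Those of arrays with unlike numbers correlated at -0.14 to 0.20, so these values cannot exclude a shared source. The number of arrays, 3 in each group, limits the precision.

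The comparison and the gene lists (hand-written from textbook pathways) were chosen with earlier results of these data known. Named genes are, by rule, the 11th to 25th largest rises and falls with non-overlapping arrays, up to 4 leading members of each list and 1 against them, the largest changes in the brightest of 10 groups by signal, the 8 largest rises and falls whose effect differed between limitations, related pairs called in opposite directions or far apart, and the 6 largest reversals between limitations; not all are named. Other floors, scalings, filters, probe set rules, variance models, a replicate block, the 6 arrays alone and each carbon-limited array left out were tried.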

Additional observations from a re-analysis of the deposited data

Results flagged for a closer look

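The temperature effect differed between the limitations for 402 of 5400 genes by limma's interaction contrast. In the named genes the difference, nitrogen minus carbon limitation on the log2 scale, was called in these cases.

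Among transporters, it was -5.70 for HXT2, -1.42 for HXT3, 0.87 for HXT14, -4.74 for GAP1, 2.60 for TAT2, -1.48 for PTR2, -3.92 for DUR3, 1.06 for FUI1, -1.85 for ZRT1 and -1.27 for TPO4. Among genes of respiration and carbon metabolism it was 1.85 for QCR2, 1.44 for QCR10, 1.36 for COX5A, 2.71 for CYC1, 2.92 for SHH3, 0.89 for NDE2, 2.90 for PCK1, 3.32 for RGI2, 2.38 for YIG1 and -2.53 for STD1. For HXT14, NDE2, FUI1 and YIG1 the arrays at 12 °C under carbon limitation were at the floor, so these sizes depend on it.

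Among lipid, wall and mating genes it was -2.31 for INO1, -1.85 for EEB1, 1.37 for SUT1, -1.82 for UPS3, -1.17 for TIR2, 1.58 for PIR3, -2.78 for WSC4, -2.14 for FLO11, 1.92 for PRM5 and 1.57 for FIG1. The remaining ones were SIP18 at 3.93, TMA10 at -1.60, RNR1 at -0.98, RNR3 at 2.31, LEU9 at 1.04 and RPI1 at -2.14. Of these 36 calls 30 were kept under all alternatives in which they were tested. The genes were mostly named for large changes, so this share does not stand for all 402 differences. A floor of 50 ended those of FUI1 and LEU9, a replicate block that of NDE2, and a fit with no filter on dim genes those of PTR2, QCR10 and SUT1. Those of LEU9, NDE2, PTR2, QCR10 and SUT1 were also lost without 1 or more single arrays, among them replicate 1 at 30 °C for all but PTR2 and replicate 2 at 30 °C for all but NDE2.

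Probe sets that the platform annotation does not list form no part of the comparisons above. When tested in the same way, 401 of 1138 of them changed with temperature under carbon limitation, 117 upward and 284 downward (35.2%). Of these, 58 rose and 171 fell at least 2-fold. Among 5965 probe sets named by 1 gene, tested in the same fit, 758 rose and 706 fell (24.5%).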

How the results depend on the processing

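The 1386 calls under carbon limitation were 1176 with a floor of 50, 1470 with quantile normalization, 1400 with median scaling and 1333 with the 6 arrays alone. A replicate block gave 1304 calls under carbon limitation and 344 differences between limitations, though the labels name no shared source for equal numbers. Leaving out single arrays gave 921 to 1261 calls (469 to 656 rises, 452 to 639 falls) and 246 to 425 differences (93 to 173 upward, 151 to 263 downward); these fits hold fewer samples. Upward differences numbered 270 with median scaling against 157, which shifts the median difference of all genes, and 168 were downward against 245. Of 129 named genes with a call, 121 kept it under all alternatives in which they were tested (14, or 13 for FET3, HXT14, NDE2, YIG1 and YPK2), and no named gene changed direction. The named genes were mostly chosen for large changes, so this share does not stand for all 1386 calls. Of 1596 counts of list members compared, 246 moved by over 1.5 times; the cause was not tested. Signals near the floor give no size of change below it. The floor of 50 also raised the filter to 50, so its counts do not separate lost calls from genes no longer tested.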

Other observations

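Genes were also set out by position and length. Of 1203 divergent neighbour pairs with both genes tested 62 had both members called, 31 both upward, 17 both downward and 14 in opposite directions. Of 1284 convergent pairs 86 had both members called (37 upward, 22 downward and 27 opposite). Of 2248 tandem pairs 164 did (55 upward, 49 downward and 60 opposite), where 25.7% of all single genes were called. Log2 changes of divergent neighbours correlated at 0.20 across pairs, those of 1284 convergent pairs at 0.11 and those of 2248 tandem pairs at 0.11. All pairs share the same 6 arrays, so the values are a description.

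In 5 equal groups of 5259 protein-coding genes by coding length the median change was 0.05, 0.11, 0.07, 0.00 and -0.01 from the shortest to the longest. The ratio of the 3' to the 5' control probe set of ACT1 was 1.53 ± 0.38 at 12 °C and 1.82 ± 0.11 at 30 °C, and that of the TATA-binding protein 3.55 ± 0.54 and 2.94 ± 0.38 (SD, n = 3).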
